A study of Mus musculus with 13 samples.

Results

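Clta, Sdcbp, Rab2a, Golph3, Bet1, Stx17, Chmp5 and Kif5b are 8 mouse genes of vesicle trafficking, and their RNA levels were compared between CD45-positive cells of tumours grown from vector cells and from PSGL1 knockout cells. The 8 genes were chosen by name from the 56923 gene IDs counted, each lying in 1 of 4 chromosome stretches where gene names match their counts. All 8 were found and all 8 passed the filter on low counts. EL4 is a mouse T-cell lymphoma line, and 500000 EL4 cells were injected under the skin of the flank in mice of 6 to 8 weeks. One group carried a vector (7 libraries, titled control) and the other a knockout of PSGL1 (6 libraries, here PSGL1_KO). The sources used here name neither the mouse strain nor the number of EL4 clones. About 20 days later the tumours of both groups were taken, and cells positive for CD45, the common surface protein of white blood cells, were sorted for total RNA sequencing. EL4 cells are themselves of a CD45-positive lineage, so the sort can hold tumour and host cells in either group.

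Cells move membrane and cargo in vesicles. Clathrin coats bud vesicles from the plasma membrane and the trans-Golgi network, Rab GTPases mark each membrane, motors of the kinesin family carry vesicles along microtubules, and SNARE proteins fuse them with their target. ESCRT proteins bud membrane away from the cytosol into endosomes, and in phagocytes and lymphocytes alike these routes serve the uptake of particles, the display of surface receptors and secretion.

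Promoter windows in RefSeq (GRCm38.p6, 250 bases before to 50 after a start) matched 5 of the 8 genes, with 6 windows. There were none for Rab2a, Sdcbp and Kif5b. The windows of Clta and Golph3 are printed because the levels of these genes moved together across libraries. Pearson's r was 0.66 as measured, and 0.77 with the effects of group and of the number in the file name removed. Those of Chmp5 and Bet1 are printed for the same reason, with 0.77 as measured and 0.65 with these effects removed. Capitals mark the CCAAT box (CCAAT or ATTGG), the ETS motif CCGGAAG, the cyclic AMP response half-site TGACGT and the motif TGCGCA, a core of sites of the factor NRF1, on either strand. The windows lie at chr4:44012420-44012719 (plus strand, Clta, the downstream of its 2 windows), chr15:12321246-12321545 (plus strand, Golph3), chr4:40948303-40948602 (plus strand, Chmp5) and chr6:4086881-4087180 (minus strand, Bet1).
Clta: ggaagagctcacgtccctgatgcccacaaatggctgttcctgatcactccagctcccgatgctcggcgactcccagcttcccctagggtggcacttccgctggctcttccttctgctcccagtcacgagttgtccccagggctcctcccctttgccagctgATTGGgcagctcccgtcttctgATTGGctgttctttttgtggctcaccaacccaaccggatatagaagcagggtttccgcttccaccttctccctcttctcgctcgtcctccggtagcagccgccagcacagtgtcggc
Golph3: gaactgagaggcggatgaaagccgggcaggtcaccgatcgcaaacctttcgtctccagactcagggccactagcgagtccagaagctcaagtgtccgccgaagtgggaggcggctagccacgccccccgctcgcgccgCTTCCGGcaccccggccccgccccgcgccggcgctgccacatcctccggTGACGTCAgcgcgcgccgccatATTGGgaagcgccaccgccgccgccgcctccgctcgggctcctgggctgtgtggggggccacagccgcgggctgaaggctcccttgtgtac
Chmp5: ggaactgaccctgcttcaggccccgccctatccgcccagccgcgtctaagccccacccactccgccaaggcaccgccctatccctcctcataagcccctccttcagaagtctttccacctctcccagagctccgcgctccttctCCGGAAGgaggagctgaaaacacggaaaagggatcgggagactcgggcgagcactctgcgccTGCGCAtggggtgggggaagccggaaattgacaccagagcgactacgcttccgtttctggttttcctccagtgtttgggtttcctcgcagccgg
Bet1: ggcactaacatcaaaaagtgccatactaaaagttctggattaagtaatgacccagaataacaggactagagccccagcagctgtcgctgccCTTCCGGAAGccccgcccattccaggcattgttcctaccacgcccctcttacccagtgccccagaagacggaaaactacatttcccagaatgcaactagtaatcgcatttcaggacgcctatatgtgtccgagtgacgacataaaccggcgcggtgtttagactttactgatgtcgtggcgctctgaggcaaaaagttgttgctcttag
The printed downstream window of Clta held 2 CCAAT boxes, a motif found in 37.4% of the 32851 windows of all genes. Its upstream window, not printed, held none of the 4 motifs marked. Golph3 held 1 CCAAT box, 1 ETS motif and the full palindrome TGACGTCA, which consists of 2 overlapping half-sites. The palindrome stood in 1.79% and the half-site in 7.51% of all windows. ETS motifs, in 8.86% of all windows, were also present in Chmp5 (1) and Bet1 (2, overlapping each other on opposite strands). TGCGCA, in 7.76% of all windows, was present in Chmp5 and in the Stx17 window. These are matches of letters in a window, and the motifs were picked with the sequences in view. Clta and Golph3 shared the CCAAT box alone among the 4 motifs marked, and only through the downstream Clta window.

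Gene counts ran from 3710817 to 5712566 per library (median 4584464). Results on named genes come from the 4 stretches, on GRCm38 chromosome 4 from 3.55 to 59.8 Mb, chromosome 6 from 3.46 to 17.34 Mb, chromosome 15 from 9.07 to 38.08 Mb and chromosome 18 from 3.27 to 10.05 Mb. Of 30 other trafficking genes inside the stretches 73.3% reached a mean of 20 CPM (counts per 1000000, scaled by TMM factors), against 28.5% of 302 outside. The stretches were defined as those where names match counts, so this contrast describes that choice and is no separate check of the names. Outside, the ID of Rab1a, a GTPase that nearly all cells use, averaged 0.462 CPM, while the ID of Kif5a, a motor of neurons, had 944 CPM. The ID of Selplg, which encodes PSGL-1, lies outside too, with 11 to 53 counts in vector and 3 to 63 in PSGL1_KO libraries, and so could not check the labels. The gene of CD45, Ptprc, lies outside as well, so the sort was not checked by it. In vector replicate 5 IDs of the mitochondrial chromosome, used only as a sum, took 34.5% of gene counts, against 10% to 17.8% in the other libraries. Numbers in the file names start with 3 in 2 vector and 2 PSGL1_KO libraries and with 7 in 5 and 4, and libraries differed widely by that number, whose meaning no source used here states. With the group in the model, 39.8% of IDs tested differed between the 2 file-number groups.

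**Figure D1:**
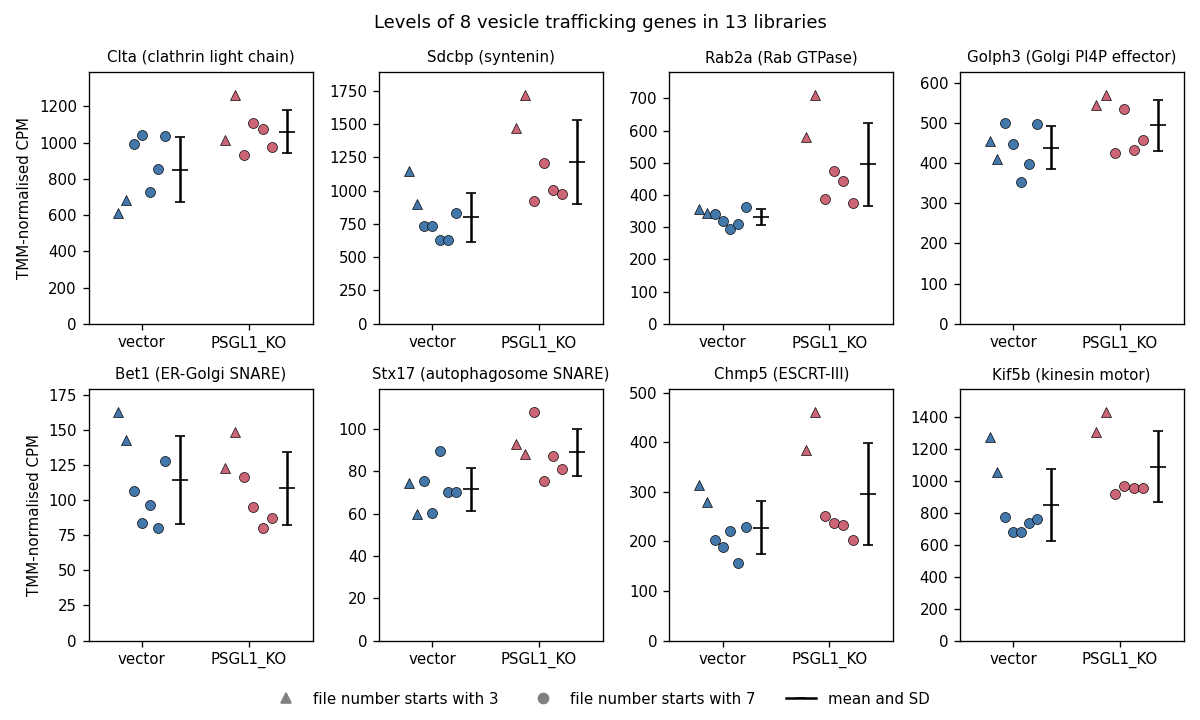
Levels of the 8 genes in TMM-normalised CPM (vertical axes, from 0) in 7 vector (blue) and 6 PSGL1_KO (red) libraries. Each point is a library, triangles have a file number starting with 3 and circles with 7, and bars give the mean and SD. Only in Rab2a do all PSGL1_KO points (376 to 710 CPM) lie above all vector points (295 to 363 CPM).

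Rab2a and Sdcbp were higher in the PSGL1_KO tumours, by 1.49-fold and 1.52-fold, and the other 6 genes did not pass the test. The test was edgeR's quasi-likelihood test, two-sided, with Benjamini-Hochberg adjustment over all 10422 IDs kept and a threshold of 0.05. Thus 2 of 8 genes were higher and 0 lower, where over all IDs tested 9.02% were higher and 5.49% lower. DESeq2 also called 2 higher and 0 lower, against 10.5% and 7.7% of IDs, and at an unadjusted p under 0.05 the edgeR test had 3 higher and 0 lower, the additional one being Stx17, against 15.2% and 12.6% of IDs at that same level. Among protein-coding IDs of the stretches 21.7% were higher, and 2.75% lower, so that 2 of 8 is near the share of their neighbours. The median log2 fold change (log2FC, PSGL1_KO over vector) of the 8 genes was 0.33, against 0.23 for protein-coding IDs of the stretches and -0.01 for all IDs tested. In bulk RNA of sorted cells, a change in the mixture of cells and a change of RNA per cell cannot be told apart.

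Rab2a encodes a small GTPase of traffic between the endoplasmic reticulum and the Golgi that also acts in the fusion of late endosomes and autophagosomes with lysosomes. It lies on chromosome 4 from 8535644 to 8607778 on the plus strand. Its level was 295 CPM at the lowest, 341 at the median and 363 at the highest in vector libraries, and 376, 460 and 710 CPM in PSGL1_KO libraries. The groups did not overlap. Such a separation was found upward in 4.14% and downward in 2.41% of all IDs tested, and in 1 of the 8 genes. The vector libraries lay close together at 333 ± 25.1 CPM (SD, n = 7), while the PSGL1_KO libraries spread widely at 496 ± 128 CPM (SD, n = 6). The log2FC was 0.57 ± 0.15 (SE) (95% interval 0.25 to 0.90, adjusted p = 0.016 in edgeR). Leaving out any 1 of the 13 libraries kept Rab2a past the threshold (log2FC 0.45 to 0.66, adjusted p 0.011 to 0.042). With scaling on IDs of the stretches, which moved the median log2FC of all IDs from -0.01 to -0.21, Rab2a had 0.35 and adjusted p = 0.042. It was then the only 1 of the 8 genes called, where 5.73% of IDs were higher and 11.3% lower. A processed pseudogene, Gm5865, is 96.4% identical to the Rab2a transcript over 637 bases, so reads shared with it leave the count uncertain to that extent.

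Sdcbp encodes syntenin-1, a scaffold with PDZ domains that binds syndecans and takes part in endosomal sorting and exosome formation. It lies on chromosome 4 from 6365650 to 6408423 on the plus strand. Vector libraries ranged from 627 CPM over a median of 733 to 1150 CPM, and PSGL1_KO libraries from 924 over 1105 to 1716 CPM. Vector replicate 1, the highest of its group, overlapped the lower PSGL1_KO libraries, and the remaining vector libraries stayed at 902 CPM or less. The means were 800 ± 184 CPM (SD, n = 7) and 1215 ± 318 CPM (SD, n = 6), a log2FC of 0.60 ± 0.18 (95% interval 0.22 to 0.99, adjusted p = 0.034 in edgeR). The call did not hold when 1 library was left out, be it vector replicate 3, 4, 5, 6 or 7 or PSGL1_KO replicate 1, 2 or 4 (adjusted p 0.055 to 0.085), nor with scaling on IDs of the stretches (log2FC 0.38, adjusted p = 0.065). Its exons overlap those of Nsmaf on the opposite strand over 78 bases, and a processed pseudogene, Gm47724, is 95.3% identical to it over 320 bases.

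Clta encodes clathrin light chain A, which binds the heavy chains that form the coat, and it did not pass. It lies on chromosome 4 from 44004452 to 44032846 on the plus strand. Vector libraries had 613 CPM at the lowest, 852 at the median and 1043 at the highest, and PSGL1_KO libraries 934, 1045 and 1262 CPM. The groups overlapped, and the lowest values of all were those of vector replicates 1 and 2, at 613 and 685 CPM. The edgeR fit gave a log2FC of 0.32 (95% interval -0.01 to 0.64, adjusted p = 0.19).

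Golph3 encodes a Golgi protein that binds phosphatidylinositol 4-phosphate and links the Golgi to actin through a myosin. It lies on chromosome 15 from 12321450 to 12351591 on the plus strand. Its range was 354 to 500 CPM with a median of 448 in vector libraries and 425 to 569 CPM with a median of 497 in PSGL1_KO libraries. The groups overlapped over most of their range. The edgeR fit gave a log2FC of 0.17 (95% interval -0.11 to 0.45, adjusted p = 0.43), and with scaling on IDs of the stretches it turned to -0.03. Of the 3257 exonic bases of Golph3, 450 overlap 1810049J17Rik on the opposite strand, where reads of both genes may mix if they were counted without strand.

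The 2 SNAREs differed in sign, and neither passed. Bet1, a SNARE of vesicles between the endoplasmic reticulum and the Golgi (chromosome 6, 4076899 to 4086972, minus strand), ranged from 80.5 to 163 CPM with a median of 107 in vector and from 80 to 149 CPM with a median of 106 in PSGL1_KO libraries. The log2FC of Bet1 was -0.08 (95% interval -0.48 to 0.33, adjusted p = 0.84 in edgeR), and it was 0.03 without vector replicate 1. Stx17, the SNARE of autophagosomes that fuse with lysosomes (chromosome 4, 48124915 to 48186507, plus strand), ranged from 60 to 89.8 CPM with a median of 70.4 in vector and from 75.5 to 108 CPM with a median of 87.8 in PSGL1_KO libraries. Vector replicate 5 had the highest Stx17 of its group and lay within the PSGL1_KO range. The log2FC of Stx17 was 0.31 (95% interval 0.02 to 0.60), with unadjusted p = 0.035 and adjusted p = 0.14 in edgeR.

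Chmp5, an ESCRT-III subunit (chromosome 4, 40948407 to 40965303, plus strand), and Kif5b, the heavy chain of the widely expressed kinesin-1 motor (chromosome 18, 6201002 to 6242174, minus strand), did not pass over all libraries. Chmp5 ranged from 157 to 313 CPM with a median of 221 in vector and from 203 to 461 CPM with a median of 244 in PSGL1_KO libraries. The edgeR fit gave Chmp5 a log2FC of 0.38 (95% interval -0.05 to 0.80, adjusted p = 0.25). Kif5b ranged from 680 to 1275 CPM with a median of 762 in vector and from 917 to 1432 CPM with a median of 965 in PSGL1_KO libraries. In both genes the 2 highest vector libraries were those whose file number starts with 3, and they overlapped the PSGL1_KO libraries. For Kif5b it gave 0.35 (95% interval -0.02 to 0.73, adjusted p = 0.21). Kif5b exons overlap antisense genes over 182 and 142 bases. Many transcripts of other genes also share a short stretch with it, such as Mrtfb (95.6% identity over 158 bases) and Npepps (97.4% over 151 bases).

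Levels of 5 of the 8 genes also differed by file number. With the group in the model, Chmp5 (log2FC of number 7 over number 3, -0.72), Kif5b (-0.61), Sdcbp (-0.58), Bet1 (-0.58) and Rab2a (-0.36) were lower in the libraries of number 7, with adjusted p from 7e-05 to 0.021 in edgeR, where 18.9% of all IDs tested were lower. No gene of the 8 was higher there, against 20.9% of IDs. With the file number as a covariate, 4 of the 8 were higher in PSGL1_KO and 0 lower, where 13.8% of all IDs were higher and 12% lower. Rab2a (adjusted p = 0.0014) and Sdcbp (0.00079) were joined by Kif5b, at log2FC 0.34 (adjusted p = 0.015), and by Chmp5, with 0.31 and adjusted p = 0.047. In the fit on group alone 21.7% of protein-coding IDs of the stretches were higher, against 9.02% of all IDs. The share among these neighbours was not taken with the covariate, within each file number, for the interaction or for groups without overlap.

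**Figure D2:**
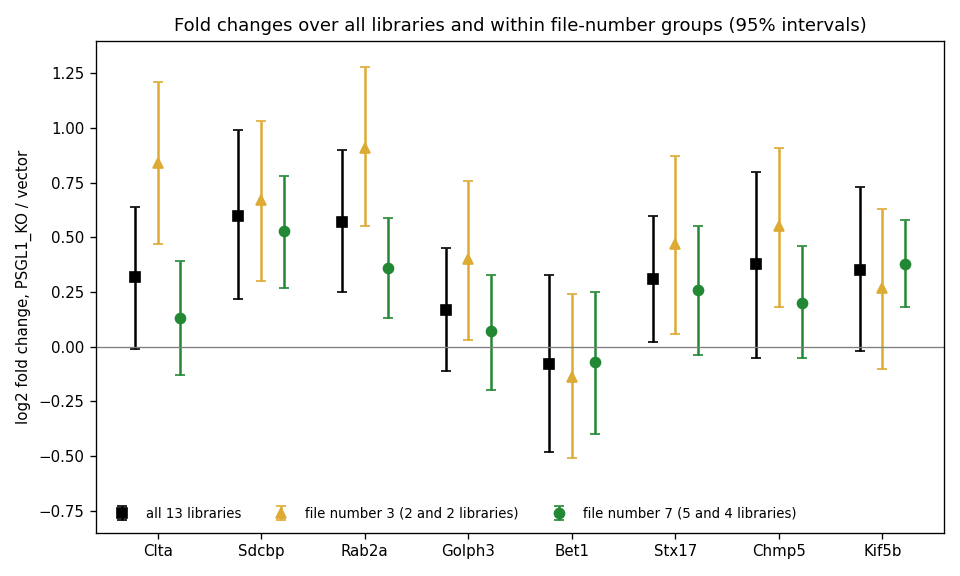
Log2 fold change of PSGL1_KO over vector (vertical axis) for the 8 genes over all 13 libraries (black squares) and within the libraries of file number 3 (yellow triangles) and of file number 7 (green circles), with 95% intervals. Clta has 0.84 within number 3 and 0.13 within number 7, Sdcbp 0.67 and 0.53, and Kif5b 0.27 and 0.38. Intervals within number 3 rest on a spread taken almost wholly from all genes pooled.

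Within the libraries of number 3 alone, with 2 per group, 4 of the 8 genes were higher in PSGL1_KO, and 0 lower, against 12.5% and 10.8% of IDs tested. Rab2a had 345 and 355 CPM in vector and 581 and 710 CPM in PSGL1_KO libraries (log2FC 0.91, adjusted p = 2.6e-05 in edgeR). Clta had 613 and 685 CPM against 1015 and 1262 CPM, a log2FC of 0.84 with adjusted p = 0.00013. Sdcbp had 902 and 1150 CPM against 1470 and 1716 CPM, and Chmp5 had 280 and 313 CPM against 385 and 461 CPM, with log2FC of 0.67 and 0.55 and adjusted p of 0.0036 and 0.02. The SE was 0.19 in each of these 4 genes, because the fit took the spread almost wholly from all genes pooled. With 2 libraries per group, these p-values do not measure each gene's own spread between libraries. Both PSGL1_KO libraries were above both vector libraries in these 4 genes and also in Golph3, Stx17 and Kif5b, which were not called, and with so few libraries the same held for 27.1% of IDs tested.

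Within the libraries of number 7, with 5 vector and 4 PSGL1_KO libraries, 3 of the 8 genes were higher and 0 lower, against 11.2% and 9.63% of IDs tested. Kif5b ranged from 680 to 777 CPM in vector and from 917 to 970 CPM in PSGL1_KO libraries (log2FC 0.38, adjusted p = 0.0099 in edgeR). Sdcbp ranged from 627 to 831 CPM and from 924 to 1209 CPM, at log2FC 0.53 (adjusted p = 0.0048). Rab2a ranged from 295 to 363 CPM and from 376 to 476 CPM, at log2FC 0.36 (adjusted p = 0.026). In Kif5b, Sdcbp and Rab2a the groups of number 7 did not overlap, with 4 of 4 PSGL1_KO libraries on the higher side, as in 9.96% of IDs tested. Clta had a log2FC of 0.13 there, with 729 to 1043 CPM in vector and 934 to 1106 CPM in PSGL1_KO libraries, and adjusted p = 0.51.

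The difference between PSGL1_KO and vector itself was not shown to differ between the file numbers in any of the 8 genes. In the edgeR test of the interaction 0 of 8 passed, where 2.11% of all IDs did, and DESeq2 also called 0. At an unadjusted p under 0.05 there were 2, against 18.4% of all IDs. These were Clta with a difference of log2FC (number 7 minus number 3) of -0.68 and adjusted p = 0.097, and Rab2a with -0.51 and adjusted p = 0.16. Without vector replicate 5 both passed, Clta with -0.81 and adjusted p = 0.016 and Rab2a with -0.61 and adjusted p = 0.0491, where 6.41% of all IDs passed.

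**Figure D3:**
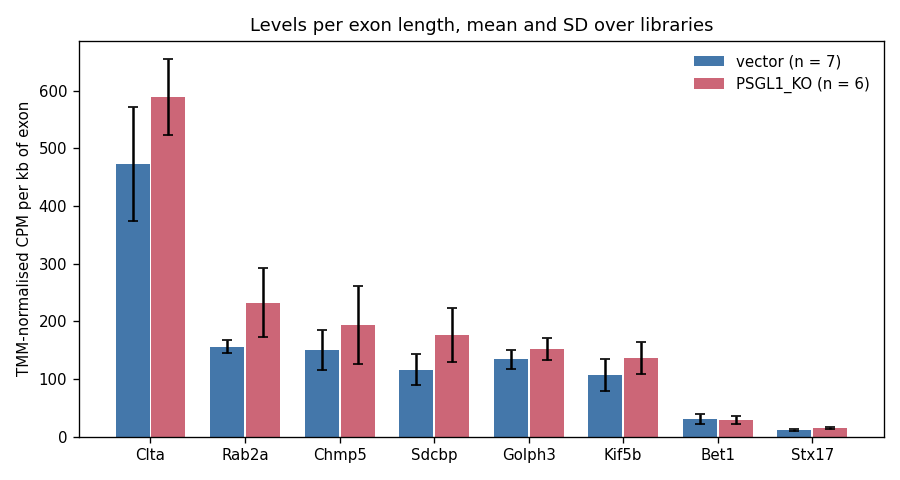
Mean TMM-normalised CPM per kilobase of merged exons (vertical axis, from 0) in vector (blue, n = 7) and PSGL1_KO libraries (red, n = 6), with the SD over libraries. Clta stands above the other 7 genes, and Bet1 and Stx17 are the lowest.

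Levels of different genes were compared per kilobase of merged exons. Clta was the most abundant, at 473 ± 99.3 CPM per kb (SD, n = 7) in vector and 589 ± 65.1 CPM per kb (SD, n = 6) in PSGL1_KO libraries, and it ranked 10 among the 327 protein-coding genes of the stretches. Rab2a (156), Chmp5 (150), Golph3 (134), Sdcbp (116) and Kif5b (107) followed with vector means in CPM per kb whose ranges over libraries overlapped, from 85.2 to 206 in all. Bet1 had 30.7 ± 8.4 and Stx17 12 ± 1.71 CPM per kb in vector libraries, and neither range overlapped that of its neighbours in the order. In PSGL1_KO libraries the means were 232 for Rab2a, 194 for Chmp5, 176 for Sdcbp, 152 for Golph3, 137 for Kif5b, 29.1 for Bet1 and 15 for Stx17. Exon lengths are those of GENCODE M21, all annotated exons included, so a gene with a long unused exon has too low a value.

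**Figure D4:**
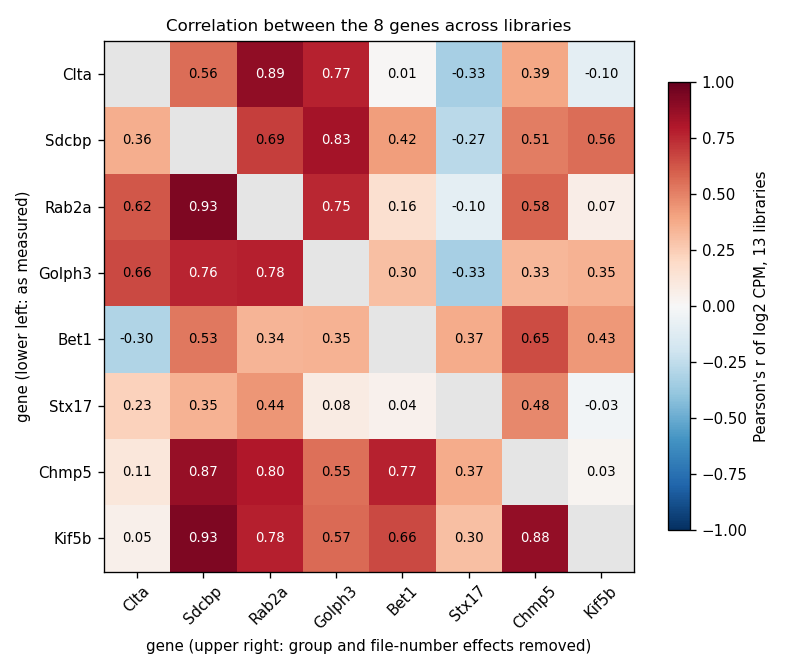
Pearson's r of log2 CPM between the 8 genes over 13 libraries, as measured (lower left) and with the effects of group and file number removed (upper right), with red positive and blue negative. Sdcbp, Rab2a, Chmp5 and Kif5b form a red block at the lower left, of which Chmp5 and Kif5b keep 0.03 at the upper right.

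Among the 28 pairs of genes, 9 had a Pearson's r of log2 CPM of at least 0.75 over the 13 libraries. The highest were Sdcbp with Rab2a and Sdcbp with Kif5b, both at 0.93, and Chmp5 with Kif5b at 0.88. These values share the groups, the file numbers and the scaling of the libraries, and they are a description. With group and file number removed, 4 pairs reached 0.75. These were Clta with Rab2a (0.89), Sdcbp with Golph3 (0.83), Clta with Golph3 (0.77) and Rab2a with Golph3 (0.75). Chmp5 and Kif5b then had 0.03, and Bet1 with Chmp5 had 0.65. Stx17 had values from -0.33 to 0.48 against the other 7, and Kif5b had values from -0.10 to 0.56.

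The protein-coding gene of the stretches most like each of the 8 over the 13 libraries was sought among 327. Kif5b was most like Ptbp3, an RNA-binding splicing regulator (r = 0.98), and Chmp5 most like Rab18, a GTPase of the endoplasmic reticulum and lipid droplets (0.97). Sdcbp was most like Cpne3, a calcium-dependent membrane-binding copine (0.96), and Rab2a most like Pop1, a subunit of ribonuclease P (0.96). For Golph3 it was Ywhaz, a 14-3-3 protein (0.92), and for Clta it was Slc25a51, a mitochondrial carrier (0.92). For Bet1 it was Smc2, a condensin subunit (0.88), and for Stx17 it was Atp8b5, a phospholipid flippase (0.85). With group and file number removed, these values ranged from 0.68 for Bet1 to 0.93 for Golph3.

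**Figure D5:**
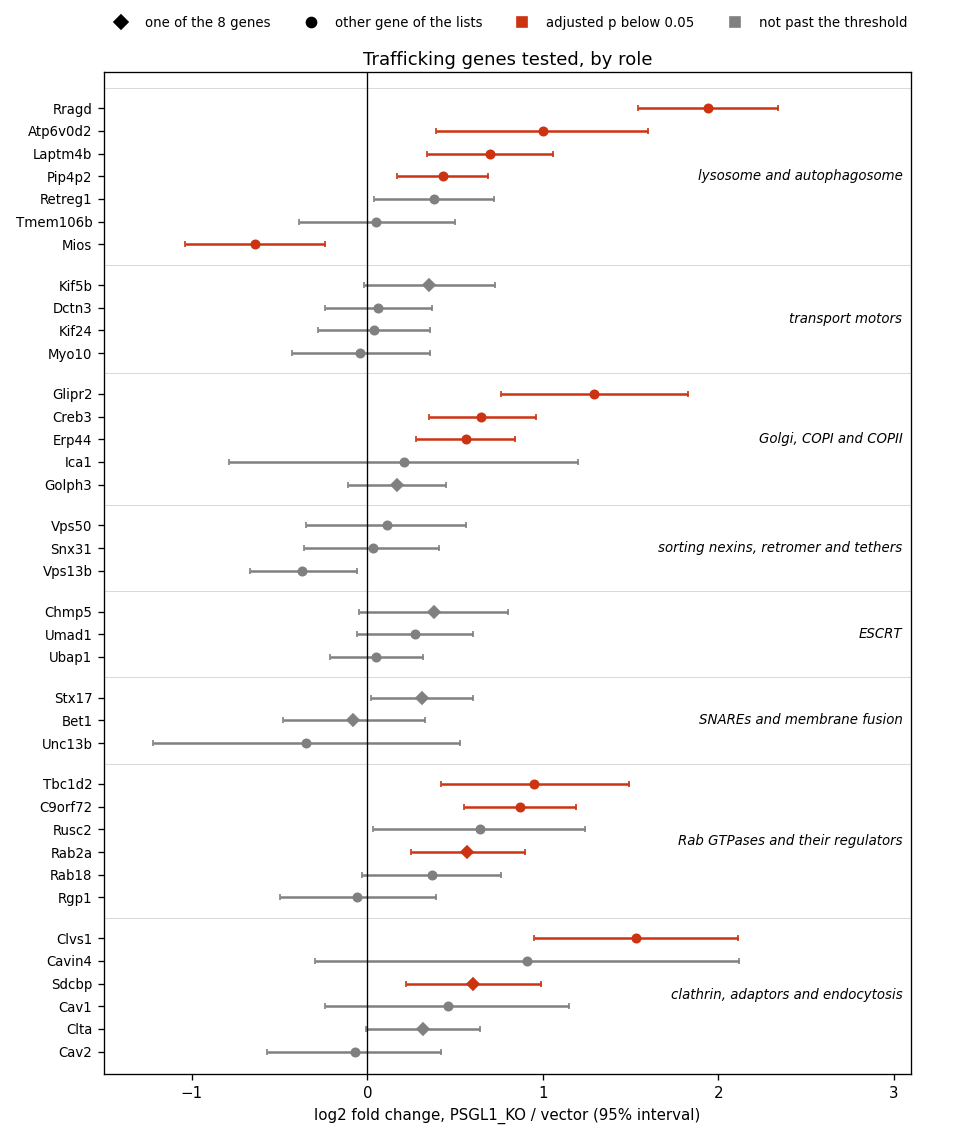
Log2 fold change of PSGL1_KO over vector (horizontal axis) with 95% intervals for the 37 trafficking genes tested, by role. Diamonds are the 8 genes, circles the other 29 and red marks an adjusted p below 0.05. Red marks on the right are most frequent in the Rab, Golgi and lysosome groups, and Mios is the single red mark on the left.

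Other trafficking genes of the stretches were read from 8 lists of 344 symbols, of which 30 besides the 8 genes lay in the stretches and 29 were tested. Of these 29, 10 were higher and 1 lower in PSGL1_KO. Over all IDs tested 9.02% were higher and 5.49% lower, and among protein-coding IDs of the stretches 21.7% and 2.75%. The median log2FC of the 29 was 0.37, against 0.23 for protein-coding IDs of the stretches and -0.01 for all IDs tested. The lists were chosen with earlier results of these data known, so these counts only describe the listed genes. Among regulators of Rab GTPases, C9orf72, a subunit of a complex that acts on Rab proteins in autophagy, rose from 55.8 ± 8.7 to 102 ± 18.4 CPM (mean ± SD over 7 and 6 libraries; log2FC 0.87, adjusted p = 0.00061 in edgeR). C9orf72 had 45.7 to 70.9 CPM in vector and 76.1 to 130 CPM in PSGL1_KO libraries, with no overlap. Tbc1d2, a GTPase-activating protein for Rab7, rose from 5.55 to 10.7 CPM (adjusted p = 0.016), a call that did not hold without PSGL1_KO replicate 4 (adjusted p = 0.057) or with scaling on IDs of the stretches (0.071). Rab18 (log2FC 0.37, adjusted p = 0.22) and Rusc2 (0.64, 0.16) did not pass in the fit on group alone. With the file number as a covariate both passed in edgeR, with adjusted p of 0.038 and 0.0034, where 13.8% of all IDs were higher.

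Golgi and secretory genes gave 3 higher of 4 besides Golph3. The share higher was 9.02% over all IDs tested and 21.7% among protein-coding IDs of the stretches. Glipr2, a Golgi-associated membrane protein, rose from 44.8 ± 11.8 to 110 ± 51.5 CPM (log2FC 1.29, adjusted p = 0.0018 in edgeR). Creb3, a transcription factor anchored in the membrane of the endoplasmic reticulum, had a log2FC of 0.65 (adjusted p = 0.0047), and its exons overlap those of Tln1 over 360 bases and Gba2 over 133 bases on the opposite strand. Erp44, a chaperone that retrieves proteins from the Golgi, rose from 284 ± 31.4 to 419 ± 62.6 CPM (log2FC 0.56, adjusted p = 0.008). In Erp44 the ranges were 245 to 320 CPM and 362 to 526 CPM, with no overlap.

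Lysosome and autophagosome genes gave 4 higher and 1 lower of 7. Over all IDs tested 9.02% were higher and 5.49% lower, and among protein-coding IDs of the stretches 21.7% and 2.75%. Rragd, a Rag GTPase of the lysosome, had a log2FC of 1.94 (adjusted p = 1e-06), Atp6v0d2, a subunit of the proton pump, 1.00 (0.025), Laptm4b, a lysosomal membrane protein, 0.70 (0.0092), and Pip4p2, a lysosomal phosphoinositide phosphatase, 0.43 (0.026), all in edgeR. The calls of Atp6v0d2 and Pip4p2 did not hold with scaling on IDs of the stretches, with adjusted p of 0.087 and 0.17, nor did that of Pip4p2 with no filter on low counts (0.16). Without PSGL1_KO replicate 4 Atp6v0d2 did not pass (0.085), and Pip4p2 did not pass when 1 library was left out, be it vector replicate 3, 4 or 6 or PSGL1_KO replicate 2 or 4 (0.055 to 0.061). Mios, a subunit of a complex that activates mTORC1 signalling, fell from 95.8 ± 21.4 to 61.5 ± 17.9 CPM (log2FC -0.64, adjusted p = 0.028). Mios did not pass when 1 library was left out, be it vector replicate 1, 2 or 3 or PSGL1_KO replicate 3, 4, 5 or 6 (adjusted p 0.053 to 0.078).

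In the remaining roles 1 gene passed. Clvs1, a lipid-binding protein of clathrin-coated vesicles, had a log2FC of 1.53 (adjusted p = 0.00088 in edgeR), and 2302 of its 7566 exonic bases overlap Asph on the opposite strand. Vps13b, a lipid-transfer protein that acts at the Golgi, had a log2FC of -0.37 and adjusted p = 0.1, and with scaling on IDs of the stretches -0.58 and 0.0035. Its exons overlap those of Cox6c on the opposite strand. Retreg1, a receptor for autophagy of the endoplasmic reticulum (log2FC 0.38), Umad1, related to an ESCRT-I subunit (0.27), Cav1 and Cavin4 of caveolae (0.46 and 0.91), Unc13b, a priming factor of vesicle release (-0.35), and Vps50 of an endosomal tether (0.11) had adjusted p of 0.13 or more. With the file number as a covariate Vps13b (lower) and Retreg1 (higher) passed in edgeR, with adjusted p of 0.0081 and 0.034. The 1 listed gene of the stretches that was not tested, Dync1i1 of the dynein motor, was at 0 in all 13 libraries.

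Summed markers of the myeloid and B-cell lists were higher in all PSGL1_KO libraries than in any vector library, while those of the stromal and T-lineage lists overlapped. Among single IDs tested, 4.14% showed such a separation upward. For the calls below, 9.02% of all IDs tested were higher and 5.49% lower. Among protein-coding IDs of the stretches these shares were 21.7% and 2.75%. The myeloid list had 3 of its 12 genes in the stretches (Lyn, Tfec and Atp6v0d2), and all 3 were higher in PSGL1_KO, with a summed level of 68.5 to 157 CPM in vector and 292 to 519 CPM in PSGL1_KO libraries. The stromal list had 14 of 22 in the stretches and 12 tested, of which 4 were higher and 0 lower, with sums of 875 to 2439 CPM and 986 to 4495 CPM. Of the B-cell list 1 of 2 tested was higher (29.9 to 77.5 and 153 to 322 CPM), and of the T-lineage list 1 was higher and 1 lower of 4 (434 to 606 and 363 to 557 CPM). No marker in the stretches was at 0 in all libraries, and markers outside them were not read by name. Atp6v0d2 is also in the lysosome list. Cav1 and Cav2, of the stromal list, are also in the endocytosis list. The part of cell mixture in the levels of Rab2a, Sdcbp and the other trafficking genes was not tested.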

How the data were processed

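Total RNA of sorted CD45-positive tumour cells was sequenced in 13 libraries. The authors deposited raw read counts per gene ID, 1 file per sample, with 56923 IDs and 5 summary rows that were kept out of all sums. Tools named in the submitters' processing notes are HISAT2, SAMtools and HTSeq with the build mm10, while no source used here states versions, the annotation release or a strand setting. Gene IDs received 10.5% to 12.5% of all rows' totals in each library, and reads over no feature 67.3% to 75.4%. IDs were matched without version to symbols (52073 of 56923). Coordinates, exon overlaps and exon lengths come from GENCODE M21 on GRCm38, and 52036 of the matched IDs carry a higher version number than there. Results on named genes come only from inside the 4 stretches. IDs outside them served as checks of names and labels and, for the mitochondrial chromosome, as a summed share, whose mapping was not tested.

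Groups and replicate numbers came from the titles. The labels do not say whether libraries come from separate mice, and p-values then cover only library-to-library spread, which may be technical. The fit used edgeR 4.0.16 in R 4.3.3 with TMM factors, filterByExpr, robust quasi-likelihood dispersion and the group as the only term. DESeq2 1.42.0 was an alternative. In a test on counts simulated for this comparison from 10422 genes, 74 of 98 tested 2-fold changes and 93 of 93 tested 4-fold changes were called, as were 7 of 10113 genes left unchanged. The simulation gave every gene the same dispersion and held no file-number effect, so these shares may not carry over to the real libraries. Log2 CPM for correlations used a prior count of 2. Transcript copies were sought with BLAST at 95% identity over at least 100 bases. The genes, lists and tests were chosen with earlier results of these data known. Named were the 8 genes, up to 20 tested genes of the lists, those past the threshold first, and for each of the 8 the gene of highest likeness. Alternatives were other scalings, no filter, each library left out, the file number and the replicate number as terms, and each file-number group alone.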

Additional observations from a re-analysis of the deposited data

Results flagged for a closer look

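In the 37 trafficking genes tested, 74 sets of values (1 gene in 1 group) were tested for a gap to the nearest library above Dixon's 95% critical value. The gap was larger in 1 set, and chance gives about 1 in 20 among independent sets. PSGL1_KO replicate 6 had the lowest Rragd of its group, 13.4 CPM, with the next library at 21.7 CPM and all 6 above the vector libraries. None of the 8 genes of the report had such a library.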

How the results depend on the processing

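Rab2a passed under every alternative run, and its log2FC lay between 0.35 and 0.91. Over all IDs, calls were 597 higher and 1177 lower with scaling on IDs of the stretches, 1435 and 1254 with the file number as a covariate, and lower calls were 1135 within number 3 and 1038 within number 7. Leaving out each library gave 753 to 1034 higher and 428 to 607 lower. Of the 8 genes, 1 was higher with scaling on the stretches, where 5.73% of IDs tested were higher. With the covariate 4 were higher (13.8% of IDs), within number 3 also 4 (12.5%), and within number 7 there were 3 (11.2%). In the replicate block 3 of the 8 were higher, and with a library left out 1 to 2. Throughout these alternatives 0 of the 8 were lower. Golph3 turned to -0.03 with scaling on the stretches and Bet1 ran from -0.18 to 0.03 with a library left out, positive without vector replicate 1. Of the other 29 trafficking genes, 7 to 10 were higher and 0 to 1 lower with a library left out, and 2 were lower with scaling on the stretches, with the covariate, within number 7 and in the replicate block. The interaction with file number called 220 IDs, 532 with DESeq2 and 3 to 661 with a library left out. The cause of these shifts was not tested.

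Replicate numbers were not shown to pair the libraries. Same-numbered libraries also share their file-number group, whose effect was not removed from the correlations that follow. Deviations of same-numbered libraries had correlations from -0.05 to 0.60, and 2 of 6 correlated best with their own number. With the replicate number as a block, which leaves out vector replicate 7, lower calls over all IDs were 881 and higher calls 1212. In that block Rab2a had 0.58 and adjusted p = 0.0077, Sdcbp 0.62 and 0.0046, and Chmp5 0.37 and 0.0496. Some 2-fold changes were missed in the simulated counts, but these gave every gene the same dispersion and may not carry over. The differences of the 6 genes that did not pass were 1.3-fold at most. Their 95% intervals reached a log2FC of 0.80 at the highest, in Chmp5. A missed threshold there does not show equal levels.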
